A study of Mus musculus with 18 samples.

Results

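The genes described here encode 9 enzymes and 1 helper protein with which cells make prostanoids and leukotrienes from arachidonic acid. They were taken from the count table by symbol, and all 10 (Pla2g4a, Ptgs1, Ptgs2, Ptges, Tbxas1, Hpgds, Alox5, Alox5ap, Lta4h and Ltc4s) were found among its 16314 gene symbols and among the 12021 genes that had enough counts to be tested. The study compared bone marrow-derived macrophages (BMDMs) of mice that lack Prep on both alleles (Prep-/-) with BMDMs of heterozygous littermates (Prep+/-), on a C57BL6/J background, to see how loss of the enzyme prolyl endopeptidase alters macrophage gene expression. Controls therefore lacked 1 Prep allele as well, and no group with both alleles was analysed here. Femoral marrow cells had been cultured over 7 days in M-CSF (50 ng/ml), the growth factor that turns precursors into macrophages. They were then left without a stimulus (M0), given the bacterial product LPS at 50 ng/ml for 24 h (M1), or given the cytokines IL-4 and IL-13 at 20 ng/ml each for 24 h (M2). Each of the 6 groups comprised 3 biological replicates, so that the 18 libraries measured the mRNA of whole cultures by bulk RNA-seq, and neither the labels nor the methods say whether a replicate was a mouse or a culture. In such samples fewer cells of a type and less RNA per cell cannot be told apart.

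Eicosanoids are short-lived signalling lipids. Cytosolic phospholipase A2 (Pla2g4a) frees arachidonic acid from membrane phospholipids. The cyclooxygenases (Ptgs1, the form most tissues make all the time, and Ptgs2, the inducible form) oxidize it to an unstable intermediate that terminal synthases turn into prostaglandin E (Ptges), thromboxane (Tbxas1) or prostaglandin D (Hpgds). In the other branch, 5-lipoxygenase (Alox5) with its membrane helper FLAP (Alox5ap) makes leukotriene A, which Lta4h hydrolyses to the neutrophil attractant leukotriene B and Ltc4s joins to glutathione to give the cysteinyl leukotrienes. Macrophages are a known source of both classes, and LPS is a classical inducer of the route from Ptgs2 to Ptges.

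Between 19068237 and 22598279 counts were assigned to genes in each library. Values below are normalized counts, that is counts divided by the effective library size and rescaled to the mean depth, with n = 3 libraries in every group. A difference was called where the edgeR adjusted p lay below 0.05 and the change exceeded 1.5-fold, and each log2 fold change is given with its SE. Prep itself lay between 551 and 900.0 normalized counts in the 9 Prep+/- libraries and between 31.3 and 68.1 in the 9 Prep-/- libraries, in accord with every label, and which part of the gene the remaining reads cover was not examined. Replicates were furthest apart in the pairs that held Prep-/- M0 replicate 3 or Prep-/- M2 replicate 3 (a chi-square per gene of 111 to 120.0, against 9.88 to 49.2 in all other pairs). Genotype differences of members called in these groups, and counts of called members, are therefore also given without those libraries. Shares of all genes called are from the edgeR fit of all 18 libraries throughout. They were not computed for fits without a library or with other settings. Values of other pathway genes are from all 18 libraries unless stated otherwise. Macrophage markers summed to between 10027 and 48180 CPM, counts relative to the effective library size, and Lyz2 made up most of that sum in every group. Markers of mast cells and basophils, which also make prostaglandin D and cysteinyl leukotrienes, summed to at most 0.281 CPM in any library, and Ms4a2 and Cma1 were at 0 in 5 of 6 groups. Platelet markers summed to between 136 and 1473 CPM, nearly all of it Pf4, while Itga2b, Gp9, Gp1bb, Gp5 and Gp6 each had a mean below 1 CPM in every group. Ppbp had a mean of 9.06 CPM in Prep+/- M1, 1.47 CPM in Prep-/- M1 and below 1 CPM in the other groups. Treml1 had group means from 0.548 to 4.06 CPM, the lowest in Prep+/- M1.

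The order of the members within a group was set by normalized counts per kilobase of the canonical transcript. In Prep+/- M0, Alox5ap led with 4912 ± 351 (SD) normalized counts per kb. Hpgds (902 ± 14.6), Lta4h (698 ± 31.2) and Tbxas1 (582 ± 12.6) followed. Ltc4s (386 ± 93.5) and Pla2g4a (326 ± 75.6) came next and did not differ beyond their spread. Ptgs1 (148 ± 6.45) and the enzyme that FLAP serves, Alox5 (113 ± 16.7), were lower still. Ptges (19.4 ± 4.0) and Ptgs2 (2.83 ± 1.54), the inducible pair, stood last. With LPS the level of Ptges per kb rose to second place in both genotypes, at 3542 ± 151 in Prep+/- and 2537 ± 41.6 in Prep-/- BMDMs, and only Alox5ap stood above it. In Prep-/- M2 cells Alox5 (2.97 ± 1.04) and Ptgs2 (3.36 ± 0.911) were the lowest of the 10 and overlapped. The rank of every member in Prep+/- M0 was the same when the longest coding transcript was used in place of the canonical one.

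**Figure D1:**
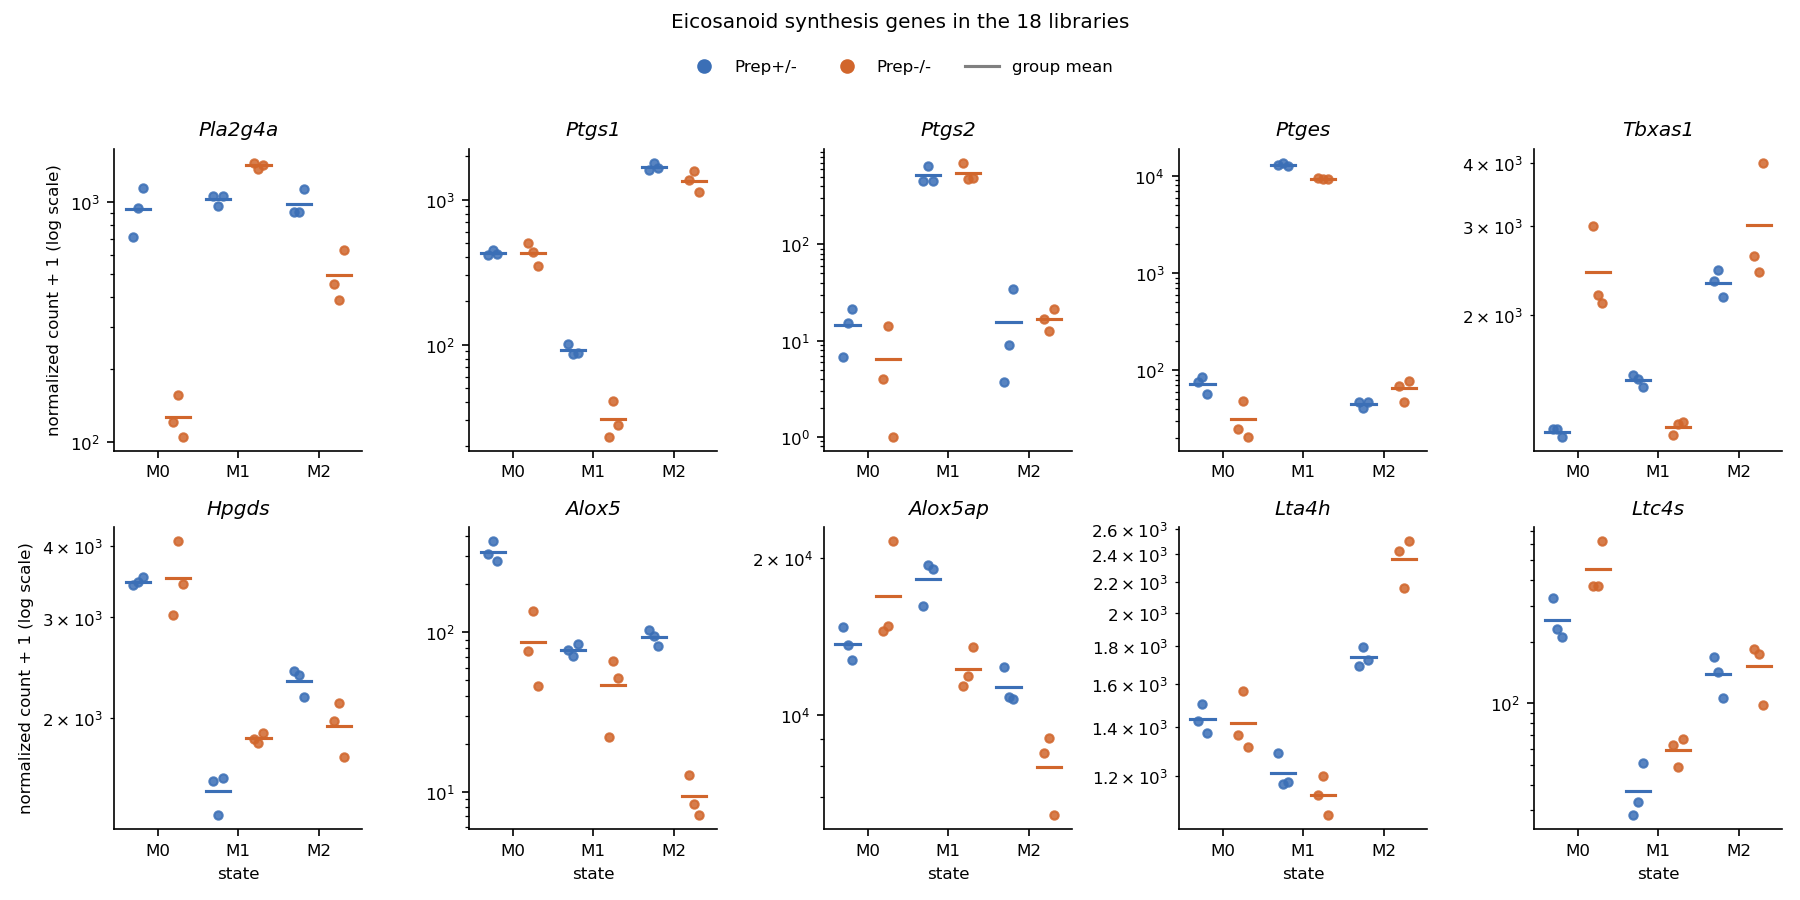
Normalized counts plus 1 (log axis, a separate scale per gene) of the 10 members in every library, by state and genotype, with each point 1 library and each line the mean of 3. Ptges lies below 86 in all M0 and M2 libraries and above 9255 in all M1 libraries, and Pla2g4a is lowest in the 3 Prep-/- M0 libraries.

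The transcript of the enzyme that frees arachidonic acid stood apart between the genotypes without a stimulus. Pla2g4a (GRCm39 chr1:149705369-149837053, minus strand, 18 exons in the canonical transcript) had 710.0, 939 and 1142 normalized counts in the 3 Prep+/- M0 libraries and 119, 156 and 104 in the 3 Prep-/- M0 libraries. The groups did not overlap, and the level was 7.35-fold lower in Prep-/- cells (log2 fold change -2.88 ± 0.20, edgeR adjusted p = 1.23e-07). Without Prep-/- M0 replicate 3 the difference was -2.76 (edgeR adjusted p = 4.78e-07). With LPS the order turned, at 1056, 955 and 1057 in Prep+/- against 1454, 1365 and 1429 in Prep-/- M1 libraries. These groups did not overlap either, but the difference did not pass the test (log2 fold change 0.47 ± 0.18, edgeR adjusted p = 0.0545). In M2 cells Prep+/- libraries held 906, 902 and 1127 and Prep-/- libraries 455, 390.3 and 631, all of the latter lower. That difference passed (log2 fold change -0.99 ± 0.19, edgeR adjusted p = 0.00102), and it was -1.20 (edgeR adjusted p = 1.48e-04) without Prep-/- M2 replicate 3.

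Neither stimulus gave a called change of Pla2g4a in Prep+/- cells, and both raised it in Prep-/- cells. In Prep+/- BMDMs the M0, M1 and M2 means were 930.2 ± 216 (SD), 1023 ± 58.4 and 978 ± 129, and neither stimulus passed the test, with 95% intervals of the log2 fold change of -0.25 to 0.52 for LPS and -0.31 to 0.46 for IL-4 and IL-13. In Prep-/- BMDMs it rose 11.2-fold with LPS (log2 fold change 3.48 ± 0.21, edgeR adjusted p = 1.30e-09) and 3.89-fold with IL-4 and IL-13 (log2 fold change 1.96 ± 0.20, edgeR adjusted p = 9.85e-07), from an M0 level that was itself the lowest of the 6 groups. The knockout difference in log2 was 3.35 higher in M1 than in M0 (edgeR adjusted p of the interaction = 2.00e-06) and 1.89 higher in M2 than in M0 (edgeR adjusted p = 7.45e-04). Ptgs2 is its next coding gene on chromosome 1, with 138.1 kb and 0 coding genes between them.

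The cyclooxygenases moved in opposite directions with LPS. Ptgs1 (chr2:36120438-36142287, plus strand) had 411, 446 and 418 normalized counts in Prep+/- M0 and 100.2, 85.7 and 85.9 in Prep+/- M1 libraries, a 4.68-fold fall (log2 fold change -2.23 ± 0.17, edgeR adjusted p = 2.67e-08). In Prep-/- libraries it went from 504, 435 and 346 to 22.0, 39.5 and 26.9, a 14.4-fold fall (log2 fold change -3.85 ± 0.20, edgeR adjusted p = 2.72e-10). The M1 libraries of both genotypes lay below every M0 and M2 library. The M0 libraries of the genotypes overlapped (log2 fold change 0.01, 95% interval -0.32 to 0.34), whereas in M1 all 3 Prep-/- libraries were below all 3 Prep+/- libraries, 3.06-fold on average (log2 fold change -1.62 ± 0.21, edgeR adjusted p = 9.38e-05). The knockout difference was lower in M1 than in M0, with an interaction of -1.63 in log2 (edgeR adjusted p = 4.86e-04). IL-4 and IL-13 raised Ptgs1 in both genotypes, to 1612, 1797 and 1651 in Prep+/- (log2 fold change 1.99 ± 0.16, edgeR adjusted p = 1.44e-07) and to 1368, 1569.8 and 1124 in Prep-/- libraries (log2 fold change 1.66 ± 0.16, edgeR adjusted p = 4.03e-07). The Prep-/- M2 libraries all lay below the Prep+/- ones, without passing the test (log2 fold change -0.32 ± 0.15, edgeR adjusted p = 0.140).

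Ptgs2 (chr1:149975194-149983978, plus strand) was close to the detection limit without LPS. Its raw counts were 6, 17 and 24 in Prep+/- M0, 3, 15 and 0 in Prep-/- M0, 3, 9 and 35 in Prep+/- M2 and 15, 11 and 20 in Prep-/- M2 libraries. With LPS they reached 397, 546 and 350 in Prep+/- and 638, 445 and 451 in Prep-/- libraries, far above every library of the other 4 groups. On the normalized scale the rise was 37.5-fold in Prep+/- (log2 fold change 5.23 ± 0.58, edgeR adjusted p = 1.11e-06) and 95.7-fold in Prep-/- cells (log2 fold change 6.58 ± 0.65, edgeR adjusted p = 3.56e-07). The latter rests on M0 counts of 18 in all, and its log2 fold change was 5.99 without Prep-/- M0 replicate 3 and 8.38 without Prep-/- M0 replicate 2. No difference between the genotypes passed the test, and the 95% intervals were wide, at -3.00 to 0.50 for M0, -0.82 to 1.02 for M1 and -1.33 to 1.63 for M2 cells. The M0 value rested on 1 library, because without Prep-/- M0 replicate 2, which held 15 of the 18 counts, the log2 fold change was -3.10 (edgeR adjusted p = 0.0379).

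Per kilobase, Ptgs2 made up at most 2.86% of the summed cyclooxygenase transcripts in any M0 or M2 library. In M1 it made up 73.2%, 82.1% and 75.9% in the Prep+/- libraries and 95.1%, 87.9% and 91.6% in the Prep-/- libraries. The M1 ranges of the genotypes did not overlap. Of the transcripts behind the share, Ptgs1 was lower in Prep-/- M1 libraries, as given above, while the Ptgs2 values of the genotypes overlapped.

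**Figure D2:**
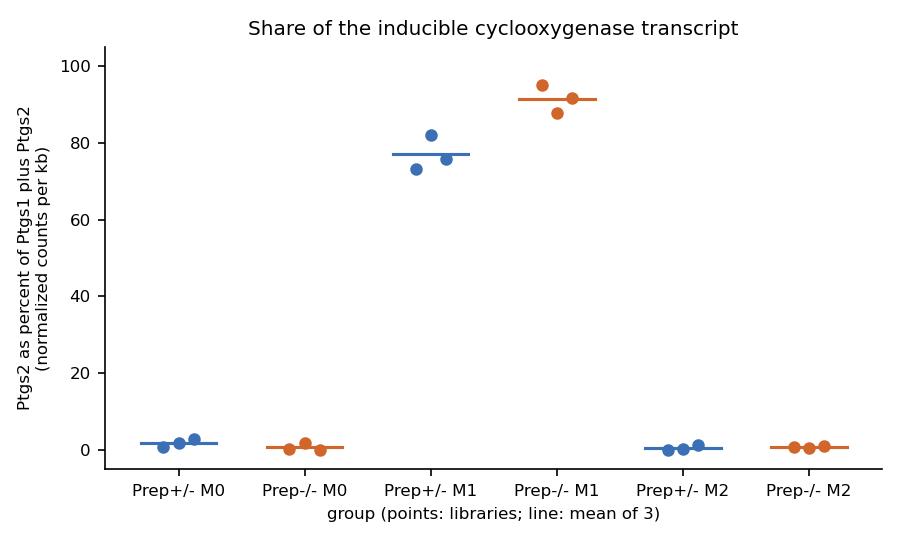
Ptgs2 as a percent of Ptgs1 plus Ptgs2 (normalized counts per kb of the canonical transcript) in each library, with lines at the mean of 3. Libraries of M0 and M2 lie at or below 2.86%, Prep+/- M1 libraries between 73.2% and 82.1% and Prep-/- M1 libraries between 87.9% and 95.1%.

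Of the terminal prostanoid synthases, Ptges, the inducible prostaglandin E synthase, showed the largest range of the 10 members. Ptges (chr2:30779483-30820196, minus strand) had 74.3, 85.2 and 56.0 normalized counts in Prep+/- M0 and 12907, 13705 and 12627 in Prep+/- M1 libraries. In Prep-/- cells it went from 24.1, 46.9 and 19.5 to 9543, 9255 and 9306. LPS thus raised it 182-fold in Prep+/- (log2 fold change 7.51 ± 0.25, edgeR adjusted p = 2.41e-12) and 305-fold in Prep-/- cells (log2 fold change 8.25 ± 0.26, edgeR adjusted p = 2.08e-12). At M0 the Prep-/- libraries were all below the Prep+/- libraries, 2.35-fold (log2 fold change -1.23 ± 0.25, edgeR adjusted p = 7.31e-04), and the log2 fold change was -1.0 (edgeR adjusted p = 0.00355) without Prep-/- M0 replicate 3. They were again all lower in M1, by 1.40-fold, which passed the adjusted p but not the fold criterion of 1.5 (log2 fold change -0.48 ± 0.18, edgeR adjusted p = 0.0459). In M2 the order was the reverse, with 46.0, 39.9 and 46.2 in Prep+/- and 68.1, 46.5 and 77.1 in Prep-/- libraries, without passing the test (log2 fold change 0.54 ± 0.24, edgeR adjusted p = 0.117). The knockout difference was 1.77 higher in M2 than in M0 (edgeR adjusted p of the interaction = 0.00617).

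Against M0, Ptges fell with IL-4 and IL-13 in Prep+/- cells (log2 fold change -0.70 ± 0.24, edgeR adjusted p = 0.0471) and rose in Prep-/- cells (log2 fold change 1.06 ± 0.26, edgeR adjusted p = 0.00293). Neither was firm. Of the 6 libraries compared, the fall did not pass when any but Prep+/- M0 replicate 3 was left out (edgeR adjusted p of 0.0863 to 0.187), and the rise, in which 1 library of each group overlapped at 46.9 and 46.5 normalized counts, did not pass when only the libraries compared were fitted (edgeR adjusted p = 0.0951).

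Tbxas1, thromboxane synthase (chr6:38852203-39061523, plus strand), was higher in Prep-/- cells at M0. In M0 libraries it had 1191, 1190.1 and 1147 normalized counts for Prep+/- against 2998, 2194 and 2116 for Prep-/- cells, without overlap (log2 fold change 1.05 ± 0.16, edgeR adjusted p = 6.37e-05). Without Prep-/- M0 replicate 3 the log2 fold change was 1.13 (edgeR adjusted p = 4.56e-05). In M1 the Prep+/- libraries (1524, 1492 and 1443) were all above the Prep-/- libraries (1158, 1215 and 1227), a difference that did not pass the test (log2 fold change -0.31 ± 0.16, edgeR adjusted p = 0.136). LPS left Tbxas1 without a called difference in Prep+/- cells (log2 fold change 0.34 ± 0.16, edgeR adjusted p = 0.0835), while in Prep-/- cells it fell 2.03-fold (log2 fold change -1.02 ± 0.16, edgeR adjusted p = 4.19e-05). The interaction between genotype and LPS was -1.36 (edgeR adjusted p = 5.46e-04). IL-4 and IL-13 raised it in Prep+/- cells, to 2331, 2458 and 2167 (log2 fold change 0.98 ± 0.16, edgeR adjusted p = 2.90e-04). The Prep-/- M2 libraries had 2617, 2429.8 and 4004, of which replicate 3 was the highest of all 18, and overlapped the Prep-/- M0 libraries (log2 fold change 0.31 ± 0.16, edgeR adjusted p = 0.122).

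Hpgds, the hematopoietic prostaglandin D synthase (chr6:65094001-65121983, minus strand), had no called difference between the genotypes in any state. At M0 the libraries overlapped, with 3416, 3457 and 3527 in Prep+/- and 3028, 4084 and 3429 in Prep-/- cells (log2 fold change 0.02, 95% interval -0.21 to 0.25). LPS lowered it in both, to 1549, 1348 and 1567 in Prep+/- (log2 fold change -1.22 ± 0.11, edgeR adjusted p = 1.42e-07) and 1835, 1807 and 1877 in Prep-/- libraries (log2 fold change -0.93 ± 0.11, edgeR adjusted p = 2.61e-06). All Prep-/- M1 libraries were above the Prep+/- ones by 1.24-fold, below the fold criterion (log2 fold change 0.31 ± 0.11, edgeR adjusted p = 0.0406). With IL-4 and IL-13 it fell in Prep-/- cells, to 1974, 2125 and 1704 (log2 fold change -0.86 ± 0.11, edgeR adjusted p = 1.13e-05). In Prep+/- cells it was 2413, 2381 and 2178, 1.49-fold lower than in M0 and just short of the fold criterion (log2 fold change -0.58 ± 0.11, edgeR adjusted p = 0.00129). Stretches of 150 bases or more of Hpgds match 15 other transcripts at 90.1% to 92.5% identity, so its counts may hold shared reads.

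In the leukotriene branch, the transcript of the first enzyme was called lower in Prep-/- cells in M0 and M2, but not in M1. Alox5 (chr6:116387032-116438139, minus strand), which encodes 5-lipoxygenase, had 307, 372 and 281 normalized counts in Prep+/- M0 and 75.3, 136 and 44.9 in the Prep-/- M0 libraries. No libraries overlapped, and Prep-/- cells were 3.74-fold lower (log2 fold change -1.90 ± 0.34, edgeR adjusted p = 2.67e-04), or -1.60 in log2 without Prep-/- M0 replicate 3 (edgeR adjusted p = 8.42e-04). In M2 cells the libraries were also apart, with 103, 94.1 and 81.2 in Prep+/- against 11.7, 7.40 and 6.09 in Prep-/- cells, a 10.9-fold difference (log2 fold change -3.45 ± 0.45, edgeR adjusted p = 6.04e-05) on raw counts of 11, 7 and 6 in the Prep-/- libraries. Without Prep-/- M2 replicate 3 it was -3.25 (edgeR adjusted p = 2.33e-04). In M1 all Prep-/- libraries (20.9, 65.1 and 50.6) were below all Prep+/- libraries (76.3, 70.2 and 83.4), without passing the test (log2 fold change -0.75 ± 0.37, edgeR adjusted p = 0.124). Neither interaction passed for Alox5 (edgeR adjusted p = 0.101 for M1 against M0 and 0.0980 for M2 against M0), but both passed in some other fits. With DESeq2 on all 18 libraries the M2 interaction passed narrowly (-1.55, DESeq2 adjusted p = 0.0495). The M2 interaction was -1.84 (edgeR adjusted p = 0.0311) without Prep-/- M0 replicate 3, and the M1 interaction was 1.66 (edgeR adjusted p = 0.0131) without Prep-/- M0 replicate 2 and 1.49 (edgeR adjusted p = 0.0282) without Prep-/- M1 replicate 1.

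Both stimuli lowered Alox5. In Prep+/- cells it fell 4.17-fold with LPS (log2 fold change -2.06 ± 0.35, edgeR adjusted p = 9.91e-05) and 3.45-fold with IL-4 and IL-13 (log2 fold change -1.79 ± 0.34, edgeR adjusted p = 0.00117). In Prep-/- cells the fall with IL-4 and IL-13 was 10.1-fold (log2 fold change -3.33 ± 0.45, edgeR adjusted p = 1.90e-05). The LPS difference in Prep-/- cells passed only narrowly (log2 fold change -0.91 ± 0.36, edgeR adjusted p = 0.0425), and the M0 and M1 libraries overlapped. The adjusted p was 0.143 when only these libraries were fitted, 0.0619 with replicates paired by number among them and 0.0406 with that pairing in all libraries. Leaving out Prep-/- M0 replicate 3 gave -1.25 (edgeR adjusted p = 0.00518). Leaving out Prep-/- M0 replicate 2 gave -0.44 (edgeR adjusted p = 0.294), leaving out Prep-/- M1 replicate 1 gave -0.61 (edgeR adjusted p = 0.150) and leaving out Prep-/- M1 replicate 3 gave -1.03 (edgeR adjusted p = 0.0567).

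Alox5ap (chr5:149196003-149227762, plus strand), whose product FLAP presents arachidonic acid to 5-lipoxygenase, was abundant throughout. In M0 libraries its values overlapped, at 14728, 13641 and 12771 for Prep+/- against 14457, 14791 and 21508 for Prep-/- (log2 fold change 0.30 ± 0.16, edgeR adjusted p = 0.120). The M1 values of Prep+/- cells (16154, 19354 and 18999.6) compared with 11372, 11889 and 13510.5 in Prep-/- cells, and the M2 values of Prep+/- cells (12374, 10841 and 10759) with 8464, 9057 and 6446. With either stimulus all Prep-/- libraries were below all Prep+/- libraries, by 1.48-fold in M1 (log2 fold change -0.57 ± 0.16, edgeR adjusted p = 0.0107) and 1.42-fold in M2 (log2 fold change -0.50 ± 0.16, edgeR adjusted p = 0.0270). Both passed the adjusted p and missed the fold criterion. In M2 the adjusted p was 0.108 without Prep-/- M2 replicate 3, the lowest of the 18 libraries. The interactions were -0.87 in M1 (edgeR adjusted p = 0.00975) and -0.81 in M2 (edgeR adjusted p = 0.0310). The M2 interaction did not pass in 7 of 12 fits with 1 library left out, among them those without Prep-/- M0 replicate 3 (-0.58, edgeR adjusted p = 0.0613) and without Prep-/- M2 replicate 3 (-0.67, edgeR adjusted p = 0.0785). Among the stimulus comparisons the fold criterion was met by the fall with IL-4 and IL-13 in Prep-/- cells (log2 fold change -1.08 ± 0.16, edgeR adjusted p = 4.14e-05).

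The enzymes after leukotriene A differed from each other. Lta4h (chr10:93289210-93320749, plus strand) was the steadiest member, with means from 1130.3 in Prep-/- M1 to 2361 in Prep-/- M2 libraries. Its M0 values of 1427, 1501 and 1373 in Prep+/- and 1365, 1566 and 1314 in Prep-/- libraries overlapped (95% interval of the log2 fold change -0.21 to 0.17). In M2 it was 1690.4, 1798 and 1726 in Prep+/- and 2421, 2162 and 2501 in Prep-/- libraries. The latter were all higher, by 1.36-fold, which passed the adjusted p but not the fold criterion (log2 fold change 0.44 ± 0.09, edgeR adjusted p = 0.00209). Against M0, the rise with IL-4 and IL-13 was called in Prep-/- cells (log2 fold change 0.74 ± 0.09, edgeR adjusted p = 7.94e-06). The interaction of genotype and state was 0.46 in M2 (edgeR adjusted p = 0.0346) and did not pass in 8 of 12 fits with 1 library left out (edgeR adjusted p of 0.0586 to 0.0946). A stretch of 573 bases of Lta4h is 90.9% identical to the pseudogene transcript Gm4854, so that reads in it may have been shared. For Ptgs1, Ptgs2, Ptges and Alox5, a transcript annotated on the opposite strand (Gm43621, Ptgs2os, Gm74745 and Gm67658) shares 150, 227, 243 and 208 bases of exon, and whether counting used strand is not given in the sources used here.

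Ltc4s (chr11:50127288-50129443, minus strand), which makes leukotriene C, had 325, 229.7 and 209.5 normalized counts in Prep+/- M0 and 373, 372 and 621 in the Prep-/- M0 libraries. All Prep-/- libraries were higher and the difference passed (log2 fold change 0.84 ± 0.27, edgeR adjusted p = 0.0170). It did not pass without Prep-/- M0 replicate 3 (log2 fold change 0.54, edgeR adjusted p = 0.112), without Prep+/- M0 replicate 2 (0.75, edgeR adjusted p = 0.0728) or without Prep+/- M0 replicate 3 (0.70, edgeR adjusted p = 0.0829). Nor did it pass with replicates paired by number among only the libraries compared (0.82, edgeR adjusted p = 0.0808). LPS lowered Ltc4s to 27.3, 32.1 and 50.0 in Prep+/- (log2 fold change -2.81 ± 0.32, edgeR adjusted p = 1.53e-06) and 61.6, 48.0 and 65.7 in Prep-/- libraries (log2 fold change -2.96 ± 0.30, edgeR adjusted p = 5.11e-07). Every M1 library lay below every library of the other states. With IL-4 and IL-13 it fell to 168, 142 and 106 in Prep+/- (log2 fold change -0.88 ± 0.28, edgeR adjusted p = 0.0363) and 184, 173 and 97.4 in Prep-/- cells (log2 fold change -1.59 ± 0.28, edgeR adjusted p = 2.35e-04). The former did not pass without Prep+/- M0 replicate 1 or 2 or without Prep+/- M2 replicate 2 or 3 (edgeR adjusted p of 0.0572 to 0.155). In M2 the genotypes overlapped (95% interval -0.47 to 0.72).

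The upstream windows of 4 members are shown because these members carry the results above. Ptges and Ptgs1 moved furthest up and furthest down with LPS in Prep-/- cells, and Pla2g4a and Alox5 were the members lower in Prep-/- cells in both M0 and M2. Each is the 250 bases before the RefSeq start, less any base that is exonic in a coding transcript (12 bases for Pla2g4a and 46 for Ptges), 5′ to 3′ on the strand of the gene, with motif matches in capitals. The RefSeq table was of GRCm38.p6, and each window was placed in GRCm39 by its 1 exact match.
Ptgs1, chr2:36120188-36120437, plus strand: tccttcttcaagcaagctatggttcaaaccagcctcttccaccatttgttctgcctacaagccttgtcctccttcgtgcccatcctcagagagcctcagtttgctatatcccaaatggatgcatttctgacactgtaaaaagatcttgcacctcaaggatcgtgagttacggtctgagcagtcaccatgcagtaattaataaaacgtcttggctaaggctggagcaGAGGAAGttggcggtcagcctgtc
Ptges, chr2:30793356-30793559, minus strand: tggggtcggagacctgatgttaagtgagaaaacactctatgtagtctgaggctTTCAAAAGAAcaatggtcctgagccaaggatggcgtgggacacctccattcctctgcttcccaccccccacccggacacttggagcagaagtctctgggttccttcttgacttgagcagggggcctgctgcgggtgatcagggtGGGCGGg
Pla2g4a, chr1:149837054-149837291, minus strand: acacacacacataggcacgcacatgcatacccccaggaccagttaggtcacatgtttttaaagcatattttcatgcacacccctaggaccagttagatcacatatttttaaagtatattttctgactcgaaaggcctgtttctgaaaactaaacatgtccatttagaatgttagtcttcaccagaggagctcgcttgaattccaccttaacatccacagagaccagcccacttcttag
Alox5, chr6:116438140-116438389, minus strand: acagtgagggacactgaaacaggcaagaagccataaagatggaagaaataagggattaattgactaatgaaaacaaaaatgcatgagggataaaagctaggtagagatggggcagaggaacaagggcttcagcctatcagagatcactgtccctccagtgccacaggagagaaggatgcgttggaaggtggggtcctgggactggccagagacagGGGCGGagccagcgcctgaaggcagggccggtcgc

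Capitals mark GAGGAAG, a core for the macrophage factor PU.1, in Ptgs1 (24 to 18 bases before the start), a GC box (GGGCGG) in Ptges and in Alox5, and in Ptges also TTC and GAA with 4 bases between them, the spacing of STAT6 sites. The other motifs searched were an NF-kappaB site, the core of the cyclic AMP element (TGACGT), the TATA box (TATAAA) and the CCAAT box. Windows were on hand for 9 of the 10 members (there was none for Alox5ap), with 2 starts for Pla2g4a, and both strands were searched. GAGGAAG was present in the windows of Ptgs1, Tbxas1 and Hpgds, and in 10.6% of all 32851 windows of the same length. The GC box was present in those of Ptgs2, Ptges and Alox5, against 32.7% of all windows. The STAT6 spacing was present in those of Ptges and Tbxas1, against 5.85% of all windows. The TATA box was present in that of Tbxas1 and in the Pla2g4a window not shown here, against 12.4% of all windows. The CCAAT box was present in that of Lta4h, against 33.8% of all windows. Neither an NF-kappaB site, which 7.25% of all windows held, nor TGACGT (6.47%) was found in any member's window. The RefSeq starts of Ptgs2 and Hpgds lie 294 and 269 bases downstream of the canonical start of GENCODE. Their windows lie within annotated exons, so the sequence before the canonical start was not searched. The RefSeq start of Tbxas1 lies 32 bases downstream of its canonical start. Its GAGGAAG (20 to 14 bases before the RefSeq start) and TATA box (13 to 6 bases) fall within those 32 exonic bases, not upstream of the canonical start. A match in these letters is a description and does not show binding.

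Without a stimulus, loss of Prep went with less transcript for arachidonic acid release (Pla2g4a), 5-lipoxygenase (Alox5) and prostaglandin E synthase (Ptges), and with more for thromboxane synthase (Tbxas1) and leukotriene C synthase (Ltc4s). In all, 5 of the 10 members were called, 2 higher and 3 lower in Prep-/- cells. Of all genes tested, 32.6% were called in this comparison, 15.4% higher and 17.2% lower. The groups did not overlap for 5 members, against 52.6% of all genes. The median absolute log2 fold change was 0.94 over the members and 0.43 over all genes tested. Without Prep-/- M0 replicate 3, 4 members were called, and the call lost was that of Ltc4s. Neutrophil and precursor markers summed to 31.9 to 43.8 CPM in the Prep+/- M0 libraries and 67.8 to 156 CPM in the Prep-/- M0 libraries, with S100a9 and Ngp the most abundant in both and Elane, Mpo and Ly6g below 1 CPM. Macrophage markers summed to 19002 to 22408 CPM and 30386 to 48180 CPM in the same libraries, mostly Lyz2. Of that list only Cd68 had a lower mean in Prep-/- M0 cells (967 CPM, against 1044 CPM in Prep+/- M0). Cd4, the most abundant of the T cell markers, had a mean of 0.844 CPM in Prep+/- and 16.9 CPM in Prep-/- M0 cells, while Cd3d was at 0 in Prep-/- M0. The part of these in the differences was not tested.

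In M1 cells the genotypes differed in 1 called member, Ptgs1, which was lower in Prep-/- cells, whereas 22.5% of all genes tested were called, 12.3% higher and 10.2% lower. Ptges, Alox5ap and Hpgds passed the adjusted p with changes under 1.5-fold. Libraries of the genotypes did not overlap for 7 members, against 56.9% of all genes. Here the neutrophil list summed to 79.1 to 145 CPM in Prep+/- and 51.5 to 71.4 CPM in Prep-/- libraries, and the platelet list to 857 to 1473 CPM and 265 to 384 CPM, of which Pf4 had a mean of 1207 and 315 CPM. Macrophage markers summed to 45757 to 47208 CPM and 30999.7 to 37043 CPM, mostly Lyz2 (means of 35216 and 23781 CPM). Of that list Cd68, Fcgr1 and Mertk had higher means in Prep-/- M1 cells. Adgre1, Csf1r, Cd14 and, by little, Itgam had lower ones, as did Lyz2. The part of these lists in the Ptgs1 difference was not tested. In M2 cells 2 members, Pla2g4a and Alox5, were called and both were lower in Prep-/- cells, against 16.2% of all genes called, 6.37% higher and 9.82% lower. Libraries did not overlap for 7 members, against 42.1% of all genes. Neutrophil markers lay at or below 30.6 CPM in Prep+/- M2 and at 30.9 to 47.0 CPM in Prep-/- M2 libraries and macrophage markers at 10027 to 12203 CPM and 13889 to 19565 CPM. Of the macrophage list, Fcgr1 and Itgam had lower means in Prep-/- M2 cells, Adgre1 was about equal and the others were higher. The part of these lists was not tested. The same 2 members were called without Prep-/- M2 replicate 3 and with replicates paired by number.

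**Figure D3:**
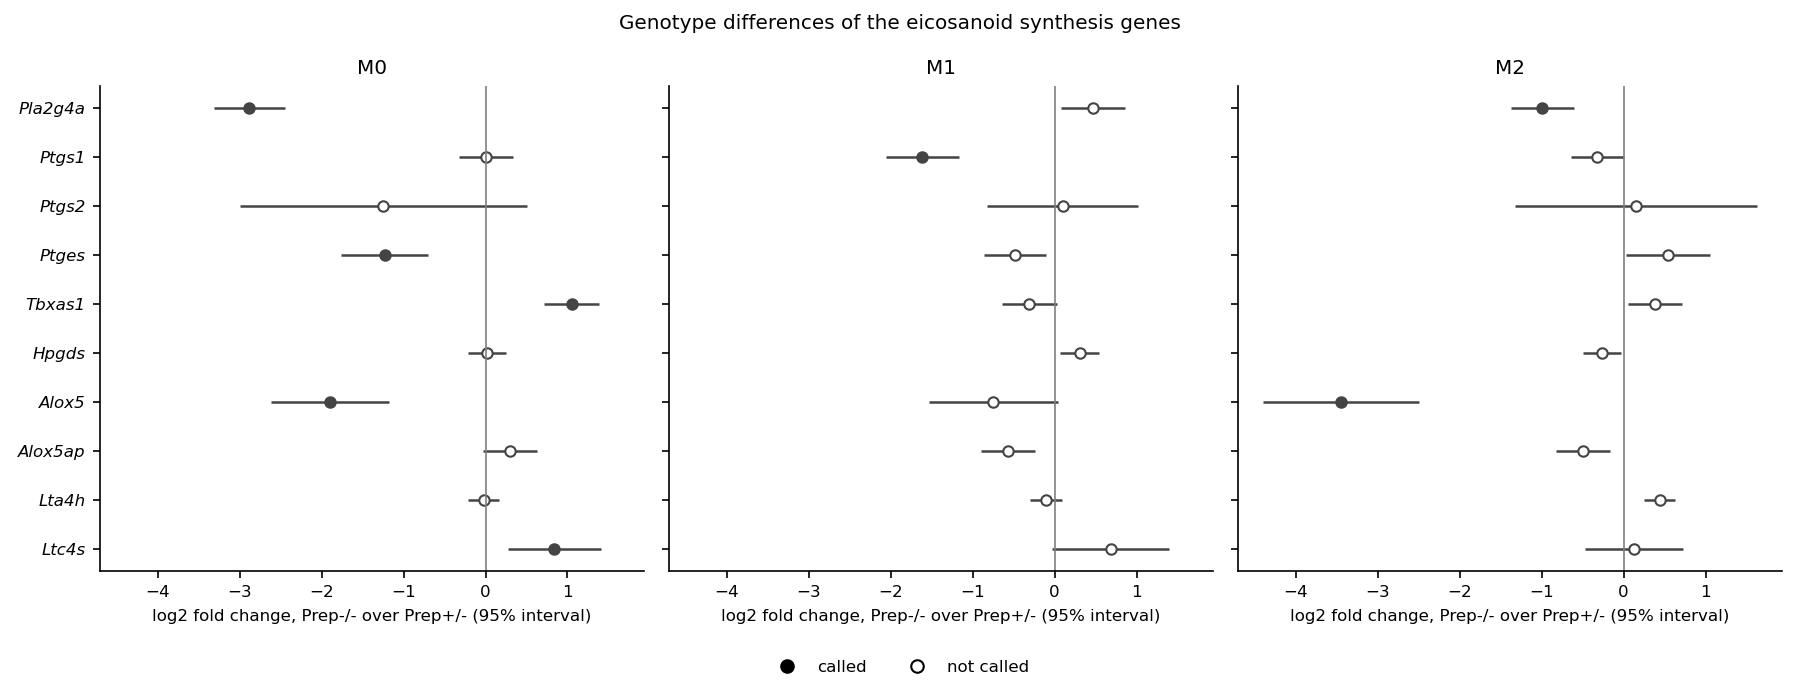
Log2 fold change of Prep-/- over Prep+/- BMDMs for the 10 members in M0, M1 and M2, with 95% intervals from the edgeR fit and filled points for called differences. M0 holds 5 called differences, M1 holds 1 and M2 holds 2, and those of Pla2g4a and Alox5 lie below 0 in both M0 and M2.

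LPS changed the prostanoid branch toward the inducible pair in both genotypes. In Prep+/- cells 6 members were called, Ptgs2 and Ptges higher and Ptgs1, Hpgds, Alox5 and Ltc4s lower, where 37.7% of all genes tested were called (16.7% higher and 20.9% lower). In Prep-/- cells 8 were called, where 42.0% of all genes were (20.9% higher and 21.0% lower). These were the same 6 members in the same directions, together with Pla2g4a, which rose, and Tbxas1, which fell. M0 and M1 libraries did not overlap for 9 members in either genotype, against 65.2% of all genes in Prep+/- and 58.5% in Prep-/- cells. The median absolute log2 fold change was 1.64 over the members and 0.47 over all genes in Prep+/- cells, and 1.99 and 0.54 in Prep-/- cells. Without Prep-/- M0 replicate 3, 8 members were called in Prep-/- cells. Marker lists moved with LPS as well. In Prep+/- cells the neutrophil list went from 31.9 to 43.8 CPM in M0 up to 79.1 to 145 CPM in M1, the platelet list from 262 to 325 CPM up to 857 to 1473 CPM and the macrophage list from 19002 to 22408 CPM up to 45757 to 47208 CPM. Of the neutrophil list, the means of S100a8 (7.61 to 51.8 CPM) and S100a9 (11.4 to 29.0 CPM) rose most. Prtn3, Camp, Ltf and Ngp rose by less CPM, and Elane, Mpo and Ly6g had lower means in Prep+/- M1. Of the macrophage list, Cd68 and Mertk had lower means in Prep+/- M1 than in Prep+/- M0, and the others higher ones. In Prep-/- cells the neutrophil list (67.8 to 156 CPM in M0 and 51.5 to 71.4 CPM in M1), the platelet list (136 to 360.2 and 265 to 384 CPM) and the macrophage list (30386 to 48180 and 30999.7 to 37043 CPM) overlapped between the states. Single macrophage markers did move there. Cd68, Adgre1 (1720 to 4280 CPM), Fcgr1 (169 to 1786 CPM), Cd14 and Itgam had higher means in Prep-/- M1 than in Prep-/- M0. Csf1r (3173 to 1156 CPM), Lyz2 (32264 to 23781 CPM) and Mertk had lower ones. The part of these lists in the member differences was not tested.

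IL-4 and IL-13 left the inducible pair low and raised Ptgs1. In Prep+/- cells 5 members were called, where 12.9% of all genes tested were (6.09% higher and 6.77% lower). Ptgs1 and Tbxas1 rose, and Ptges, Alox5 and Ltc4s fell. In Prep-/- cells 8 members were called, where 30.2% of all genes were (14.7% higher and 15.5% lower). Of these Pla2g4a, Ptgs1, Ptges and Lta4h rose, and Hpgds, Alox5, Alox5ap and Ltc4s fell. M0 and M2 libraries did not overlap for 8 members in Prep+/- and 7 in Prep-/- cells, against 45.9% and 44.4% of all genes. In Prep-/- cells 8 members were called both without M0 replicate 3 and without M2 replicate 3. The macrophage list was lower in M2 (10027 to 12203 CPM in Prep+/- and 13889 to 19565 CPM in Prep-/- cells) than in M0 cells of the same genotype, as was the neutrophil list. Lyz2 means fell from 17133 to 7541 CPM in Prep+/- and from 32264 to 12304 CPM in Prep-/- cells. Csf1r, Fcgr1, Mertk, Cd14 and Itgam fell in both genotypes as well. Cd68 rose (1044 to 1278 CPM in Prep+/- and 967 to 1620 CPM in Prep-/- cells), and Adgre1 rose in Prep+/- and fell in Prep-/- cells. The part of these lists was not tested. The LPS and the IL-4 and IL-13 comparisons of a genotype share their M0 libraries, and the M0 libraries also enter the M0 genotype comparison, so these results are not independent of each other.

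**Figure D4:**
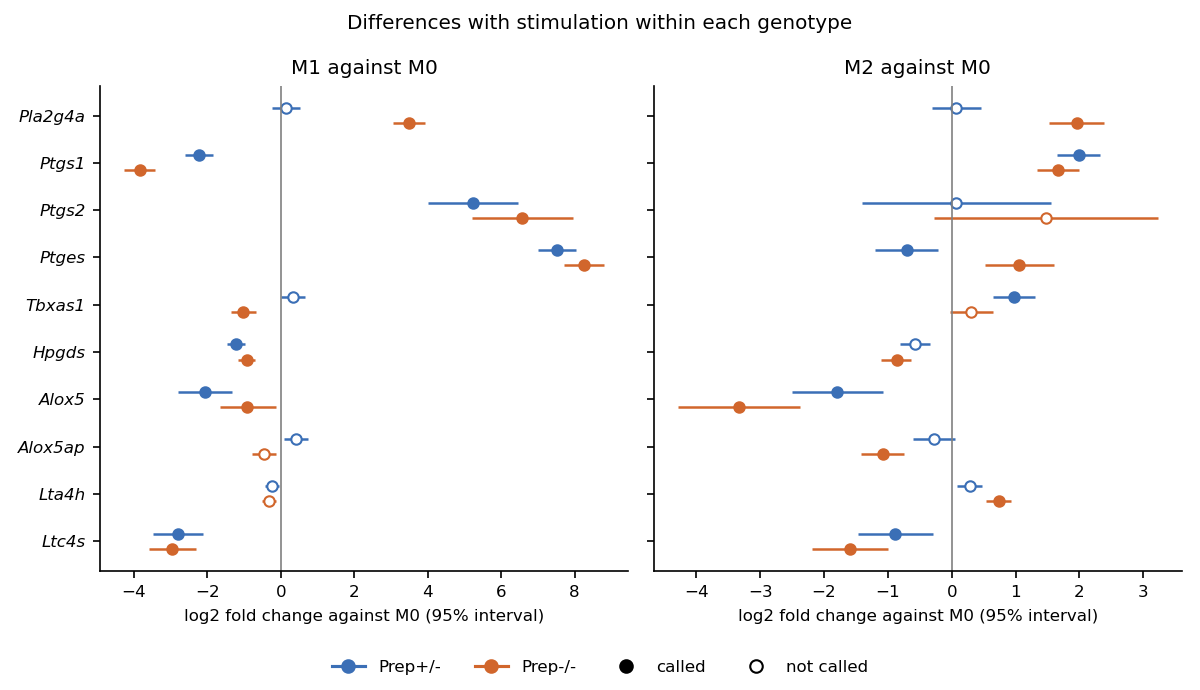
Log2 fold change of M1 or M2 against M0 for the 10 members within each genotype, with 95% intervals from the edgeR fit, filled points for called differences and a separate axis for each stimulus. Ptgs2 and Ptges lie above 5 with LPS in both genotypes, and the intervals of Pla2g4a do not overlap between the genotypes with either stimulus.

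Whether the effect of Prep loss differed between states was tested as an interaction, called here at an adjusted p under 0.05. Against M0, the knockout difference in M1 was higher for Pla2g4a and lower for Ptgs1, Tbxas1 and Alox5ap, so that 4 of 10 members were called where 24.6% of all genes tested were (13.7% higher and 10.9% lower). The same 4 were called without Prep-/- M0 replicate 3. In M2 the knockout difference was higher for Pla2g4a, Ptges and Lta4h and lower for Alox5ap, again 4 of 10 members, where 9.64% of all genes were called (5.16% higher and 4.48% lower). The M2 count was 2 when only the libraries concerned were fitted. Without Prep-/- M0 replicate 3 it was 5, with Alox5ap lost and Tbxas1 (-0.75, edgeR adjusted p = 0.0375) and Alox5 (-1.84, edgeR adjusted p = 0.0311) gained. Without Prep-/- M2 replicate 3 it was 3, with Alox5ap and Lta4h lost and Tbxas1 gained (-0.91, edgeR adjusted p = 0.00278).

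Of 86 other genes of the pathway, listed by role, 76 were in the count table and 57 were tested. At M0, 19 of these were higher and 9 lower in Prep-/- cells, 49.1% in all against 32.6% of all genes tested. Without Prep-/- M0 replicate 3 the counts were 19 and 8. The list of leukotriene breakdown, transport and 5-lipoxygenase partners had 6 of 11 higher and 1 lower. Among them Cyp4f18, which inactivates leukotriene B, had a mean of 205 in Prep+/- and 1028 normalized counts in Prep-/- cells (log2 fold change 2.33 ± 0.30, edgeR adjusted p = 1.56e-05), and Ggt5, which cleaves leukotriene C, 83.5 and 331 (log2 fold change 1.99 ± 0.33, edgeR adjusted p = 1.48e-04). Hpgd, the enzyme that inactivates prostaglandins, rose from 936, 517 and 523 to 3793, 3868 and 3229.6 (log2 fold change 2.46 ± 0.45, edgeR adjusted p = 3.07e-04), while Abcc4, a prostaglandin exporter, fell (log2 fold change -1.06 ± 0.22, edgeR adjusted p = 0.00100). Of the 5 prostanoid receptors tested, Ptger2, Ptger3 and Ptger4, which bind prostaglandin E, were higher. Ptger2 missed the fold criterion without Prep-/- M0 replicate 3 (0.54) or without Prep+/- M0 replicate 3 (0.48), and Ptger4 was not called without Prep-/- M0 replicate 1 (0.41, edgeR adjusted p = 0.0838). The receptor for resolvin E and chemerin, Cmklr1, was higher as well (log2 fold change 2.63 ± 0.32, edgeR adjusted p = 9.39e-06). Of the other phospholipases A2, Pla2g7 and Pla2g15 were higher and Pla2g2e lower, among 2 higher and 2 lower of 8 tested. Pla2g7 was not called without Prep-/- M0 replicate 1 (0.53, edgeR adjusted p = 0.181) or without Prep+/- M0 replicate 3 (1.10, edgeR adjusted p = 0.0597).

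In M1 cells 9 of the 57 were higher and 7 lower in Prep-/- cells, 28.1% in all against 22.5% of all genes. With 1 library left out, 8 to 10 were higher and 3 to 6 lower. The list of arachidonate supply and reacylation had 5 of 9 higher and 1 lower. Fads2, a desaturase on the route to arachidonic acid, had 77.5, 38.1 and 33.3 normalized counts in Prep+/- and 869, 1274 and 879.8 in Prep-/- M1 libraries (log2 fold change 4.33 ± 0.62, edgeR adjusted p = 1.55e-04). Fads1 (log2 fold change 0.93 ± 0.13, edgeR adjusted p = 1.22e-04) and the ligase Acsl3 (log2 fold change 1.45 ± 0.41, edgeR adjusted p = 0.0120) were higher too. Akr1c18 had a mean of 48.2 in Prep+/- and 1.80 in Prep-/- M1 cells (log2 fold change -4.64 ± 0.61, edgeR adjusted p = 9.56e-05). In M2 cells 8 were higher and 3 lower, 19.3% in all against 16.2% of all genes, and 10 and 5 without Prep-/- M2 replicate 3. Fads2 had 106, 88.8 and 161 normalized counts in Prep+/- M2 and 182, 178 and 1118 in the Prep-/- M2 libraries (log2 fold change 2.06 ± 0.54, edgeR adjusted p = 0.0112). That difference rested on Prep-/- M2 replicate 3, without which it was 0.62 (edgeR adjusted p = 0.131), and it was 1.85 (edgeR adjusted p = 0.0545) without Prep+/- M2 replicate 2. Higher in Prep-/- M2 cells were Cmklr1 (log2 fold change 1.67 ± 0.31, edgeR adjusted p = 9.99e-04), the prostacyclin receptor Ptgir (log2 fold change 0.78 ± 0.15, edgeR adjusted p = 0.00146) and the cysteinyl leukotriene receptor Cysltr2 (log2 fold change 1.16 ± 0.28, edgeR adjusted p = 0.00621), and the secreted phospholipase Pla2g5 was lower (log2 fold change -1.23 ± 0.28, edgeR adjusted p = 0.00405).

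**Figure D5:**
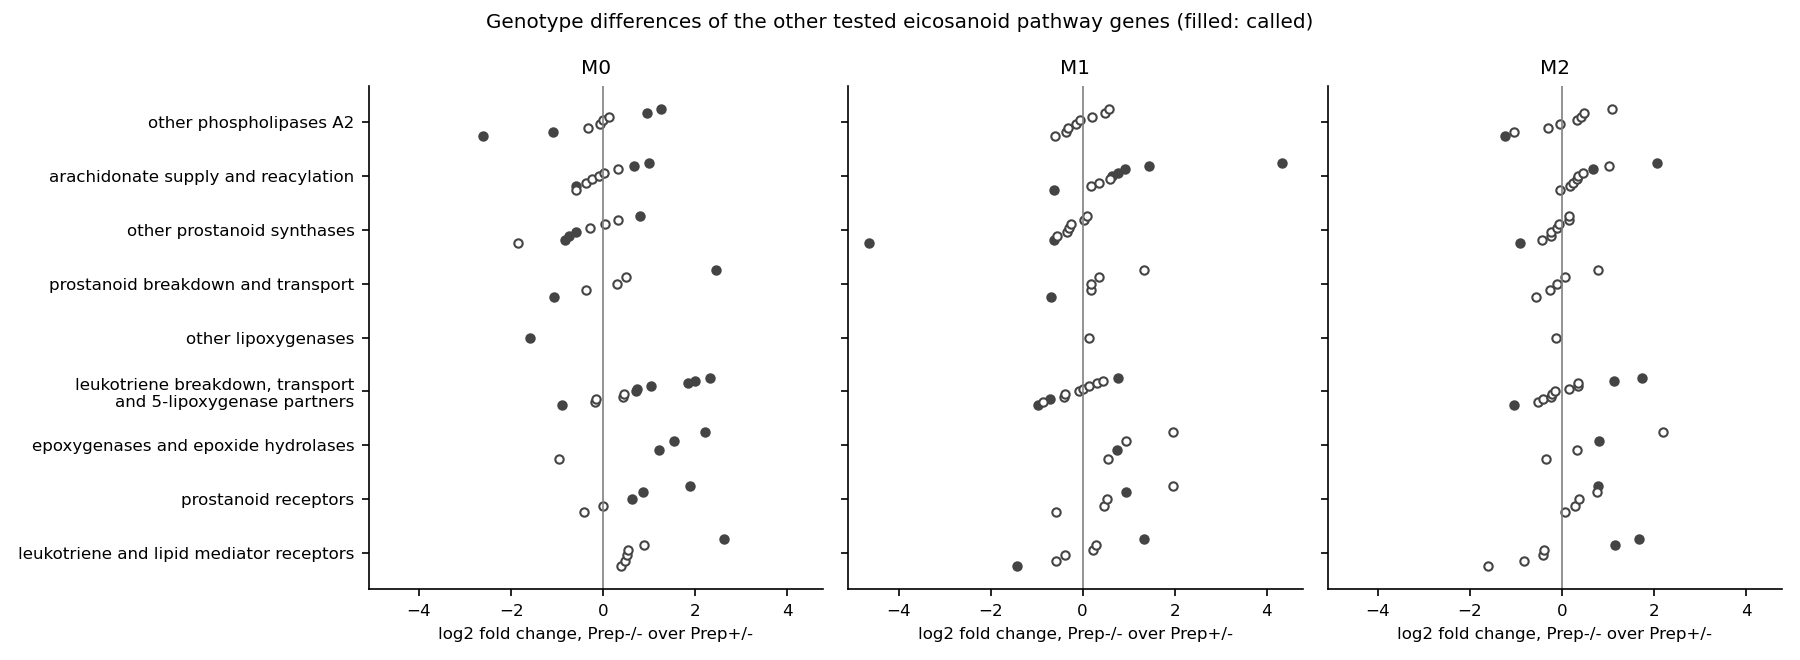
Log2 fold change of Prep-/- over Prep+/- BMDMs for the 57 other pathway genes tested, by role and state, with each point 1 gene and filled points for called differences. In M0 the list of leukotriene breakdown, transport and 5-lipoxygenase partners holds 6 genes called higher and 1 called lower, and in M1 the highest point is Fads2 at 4.33.

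With LPS, 20 of the 57 rose and 14 fell in Prep+/- cells, and 17 rose and 15 fell in Prep-/- cells. These are 59.6% and 56.1% of the list, against 37.7% and 42.0% of all genes. The list of leukotriene and lipid mediator receptors also holds formyl peptide receptors. Of all genes tested, 16.7% were called higher in Prep+/- and 20.9% in Prep-/- cells. All 6 genes of that list that were tested rose in Prep+/- cells and 4 of 6 in Prep-/- cells. Among them were the leukotriene B receptor Ltb4r1 (log2 fold change 4.22 ± 0.45, edgeR adjusted p = 8.12e-07 in Prep+/-) and the formyl peptide receptors Fpr1 (log2 fold change 8.65 ± 0.44, edgeR adjusted p = 2.95e-10) and Fpr2 (log2 fold change 6.71 ± 0.44, edgeR adjusted p = 4.20e-09). Hpgd fell to 3.42, 5.95 and 5.13 in Prep+/- (log2 fold change -7.06 ± 0.74, edgeR adjusted p = 6.05e-07) and to 17.6, 6.40 and 12.9 in Prep-/- libraries (log2 fold change -8.19 ± 0.65, edgeR adjusted p = 3.37e-08), the opposite direction to Ptges. Fads2 fell in Prep+/- cells (log2 fold change -2.92 ± 0.60, edgeR adjusted p = 6.41e-04) and rose in Prep-/- cells (log2 fold change 2.01 ± 0.53, edgeR adjusted p = 0.00382). Pla2g7, the plasma-type platelet-activating factor hydrolase, rose in both (log2 fold change 3.85 ± 0.42, edgeR adjusted p = 9.93e-07 in Prep+/- and log2 fold change 2.28 ± 0.39, edgeR adjusted p = 1.14e-04 in Prep-/-). The Prep-/- value was 3.0 without Prep-/- M0 replicate 1.

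With IL-4 and IL-13, 10 rose and 10 fell in Prep+/- cells, and 12 rose and 19 fell in Prep-/- cells. These are 35.1% and 54.4% of the list, against 12.9% and 30.2% of all genes. Ptger2 and Ptgir rose and Ptger4 fell in both genotypes. Pla2g5 rose from 21.2, 34.2 and 28.0 to 249, 357 and 260.5 in Prep+/- (log2 fold change 3.36 ± 0.31, edgeR adjusted p = 9.72e-07) and from 2.01, 3.54 and 7.81 to 82.0, 95.2 and 191 in Prep-/- libraries (log2 fold change 4.75 ± 0.41, edgeR adjusted p = 1.34e-07). The latter was 5.37 without Prep-/- M0 replicate 3. The microsomal glutathione transferase Mgst2, which can also make leukotriene C, fell alongside Ltc4s in Prep+/- (log2 fold change -2.23 ± 0.36, edgeR adjusted p = 3.07e-04) and Prep-/- cells (log2 fold change -3.07 ± 0.38, edgeR adjusted p = 7.97e-06). The lists were chosen with results of these data known, and the counts are descriptions.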

How the data were processed

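RNA was measured in 18 BMDM libraries (TruSeq Stranded mRNA). Per the study's methods, the authors trimmed reads (Trimmomatic 0.36), aligned them to GRCm39 (HISAT2 2.2.1.0), assembled them with stringtie2 and deposited raw counts per gene symbol; the annotation release, strand setting and treatment of reads matching several genes are not given in the sources used here. Groups came from the sample labels, and 0 sample columns were left unmapped.

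All 18 libraries were fitted with 1 coefficient per group by edgeR's quasi-likelihood test (edgeR 4.0.16, R 4.3.3, TMM scaling, filterByExpr), with Benjamini-Hochberg adjustment over 12021 genes; p-values measure the spread between these libraries. On counts simulated for Prep-/- against Prep+/- in M0 (11823 genes), 56.9%, 80.3% and 90.8% of 1.75-, 2.5- and 4-fold changes were recovered. Only 200 genes were changed there, and each gene had the same spread in every library. In the data 32.6% of genes were called and Prep-/- M0 replicate 3 stood apart, so these rates need not hold for the data. Alternatives were DESeq2 1.42.0, its size factors, other filters, glmTreat, fits of only the libraries compared, each library left out and a replicate block; leaving libraries out for other pathway genes was added after seeing the data. Same-numbered libraries deviated together in 2 comparisons, the genotypes in M2 (r of 0.249, 0.255 and 0.462) and M1 against M0 in Prep-/- (0.201, 0.169 and 0.259).

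Of other pathway genes, at most 3 called per role list and comparison were named, those with the largest log2 fold change at a mean of 1 CPM or more. The members and lists were chosen with earlier results of these data known. Transcript lengths were from GENCODE vM39, promoters from RefSeq.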

Additional observations from a re-analysis of the deposited data

Results flagged for a closer look

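For 8 member results the effect of Prep loss differed between states by an interaction test over all 12021 genes, each given here as the knockout log2 difference in the stimulated state minus that in M0. Pla2g4a had the largest, at 3.35 for M1 (edgeR adjusted p = 2.00e-06) and 1.89 for M2 (edgeR adjusted p = 7.45e-04), from a knockout difference of -2.88 in M0, 0.47 with LPS and -0.99 with IL-4 and IL-13. For Ptgs1 in M1 it was -1.63 (edgeR adjusted p = 4.86e-04), from 0.01 in M0 and -1.62 in M1. Tbxas1 had -1.36 in M1 (edgeR adjusted p = 5.46e-04), from 1.05 in M0 and -0.31 in M1. For Ptges in M2 the value was 1.77 (edgeR adjusted p = 0.00617), from -1.23 in M0 and 0.54 in M2. Alox5ap had -0.87 in M1 (edgeR adjusted p = 0.00975) and -0.81 in M2 (edgeR adjusted p = 0.0310), from 0.30 in M0, -0.57 in M1 and -0.50 in M2. For Lta4h in M2 it was 0.46 (edgeR adjusted p = 0.0346), from -0.02 in M0 and 0.44 in M2. The M2 values of Alox5ap and Lta4h did not pass in 7 and 8 of 12 fits with 1 library left out. The M0 libraries enter every one of these differences.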

How the results depend on the processing

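Of 1290 recomputed member values, 1194 kept their direction and their side of the threshold, 43 lost the call, 27 gained one and 26 changed sign. The number of members called in M1 between the genotypes was 2 with DESeq2 and 2 with its size factors in edgeR. With glmTreat it was 1 between the genotypes in M2 and 3 for M2 against M0 in Prep+/- cells. For the interaction in M2 it was 2 with only the libraries compared and 1 with the replicate block in those libraries. With DESeq2 that count was 6, with Tbxas1 (-0.66, DESeq2 adjusted p = 0.0331) and Alox5 (-1.55, DESeq2 adjusted p = 0.0495) gained. With 1 library left out, the count ran from 1 to 2 between the genotypes in M1, 2 to 4 in M2, 3 to 5 for M2 against M0 in Prep+/- and 2 to 5 for the interaction in M2. Ptgs1 between the genotypes in M0 was -0.01 with a filter of 1 CPM in 3 libraries and -0.01 with the replicate block in the libraries compared, and Ptgs2 for M2 against M0 in Prep+/- was -0.03 with that block. With 1 library left out, the log2 fold change between the genotypes in M0 ran from -0.12 to 0.13 for Ptgs1, -0.10 to 0.12 for Hpgds and -0.10 to 0.02 for Lta4h. For Ptgs2 it ran from -0.12 to 0.29 in M1 and -0.34 to 1.56 in M2, and for Ltc4s from -0.04 to 0.38 in M2. Against M0 in Prep+/- cells, Pla2g4a ran from -0.05 to 0.32 in M1 and -0.11 to 0.25 in M2, and Ptgs2 from -1.35 to 0.55 in M2. Ltc4s ran from -0.39 to 0.14 in the interaction in M1. In the interaction in M2, Alox5ap lost the call in 7 and Lta4h in 8 of 12 fits with 1 library left out, and with only the libraries compared the edgeR adjusted p was 0.0793 and 0.0931. The Ptges value was not called with the replicate block in the libraries compared (edgeR adjusted p = 0.0591). In the 2 comparisons where same-numbered libraries deviated together, the replicate block in all libraries changed no member call. In only the libraries compared, Alox5 for M1 against M0 in Prep-/- was not called without the block (-0.94, edgeR adjusted p = 0.143) or with it (-0.92, edgeR adjusted p = 0.0619). The cause of these changes was not tested. Ptgs2 outside M1 and Alox5 in Prep-/- M2 cells rest on 35 counts or fewer per library, which limits their precision.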

Other observations

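Over the 18 libraries, some members varied together in log2 CPM. Ptgs2 and Ptges had the highest Pearson r of any pair (0.96), followed by Hpgds and Ltc4s (0.90) and by Ptgs1 and Lta4h (0.85). The lowest were those of Ptgs2 with Ltc4s (-0.91) and of Ptgs1 with Ptges (-0.88). All points come from the same 6 groups and share library and depth, so these values largely restate the group means.

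Among all genes tested, those with the pattern most like each member over the 18 libraries were Faf1 and Ppp1r2 for Pla2g4a (Pearson r of 0.964 for both), Zfp706 and Amz1 for Ptgs1 (0.982 and 0.978) and Rnf24 and Sgms2 for Ptgs2 (0.968 and 0.967). For Ptges they were Xkr8 and Car13 (0.991 and 0.990), for Tbxas1 Sema4b and Cd74 (0.952 and 0.940) and for Hpgds Ncapg2 and Zbtb16 (0.977 and 0.960). In the leukotriene branch they were Olfml3 and Nid2 for Alox5 (0.925 for both), Arpc3 and Pdlim2 for Alox5ap (0.942 and 0.929), Tspan5 and Hadha for Lta4h (0.973 and 0.961) and Hpgd and Cracr2b for Ltc4s (0.977 and 0.973).

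By the ratio of the highest to the lowest group mean, Ptges (433), Ptgs2 (102), Ptgs1 (57.2) and Alox5 (38.1) varied most and Lta4h (2.09) least. Over the 7 comparisons of 2 groups, Alox5 was called lower in 6 and higher in 0, and Ptgs2 was called higher in 2, both with LPS. These comparisons reuse the same 6 groups, and such a count was not made over all genes. The Alox5 call for M1 against M0 in Prep-/- cells was lost in 5 of 13 other fits.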
